A study of Sus scrofa with 15 samples.

Results

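ZC3H12A (ENSSSCG00000037815), CXCL2 (ENSSSCG00000008959), SOCS3 (ENSSSCG00000036956) and TNFRSF21 (ENSSSCG00000001727) are cytokine signalling genes and were followed through all 15 RNA-seq libraries of LLC-PK1 cells, of which 12 came from cells given a human PKD2 plasmid and 3 from cells given an empty one. They are 4 of the 16660 genes in the count table, and all 4 were among the 11553 genes tested. They were chosen because earlier work on these libraries set them apart in comparisons with the control, above all in Tg1, so every value of these 4 genes against the control, and every value of theirs in Tg1, is given here as a description without a test. Of the other comparisons of the 4 genes, tests are given only for SOCS3 in Tg2 and Tg3 with WT, because the lists for those mutants do not hold SOCS3. LLC-PK1 is a pig kidney epithelial line of proximal tubule type. The cells were transfected at 80% confluency with 3 µg of plasmid, in which a CAG promoter drove the insert, and RNA was taken 48 h later from 3 wells per plasmid. NC was the empty plasmid and WT carried normal human PKD2. Tg1 carried the change c.A1532T (p.D511V), Tg2 carried c.T1967G (p.L656W) and Tg3 carried c.C2224T (p.R742X), the last a stop codon that removes the C-terminal tail. All wells were of 1 cell line that kept its own pig PKD2 gene and was transfected transiently, so that the p-values measure the spread between wells. The share of cells that took up the plasmid was not analysed here, and in these bulk libraries more cells with a transcript and more transcript per cell cannot be told apart.

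Cytokines and chemokines bind receptors that switch on NF-kB, JAK-STAT and MAPK signalling, and the genes induced in this way include the inhibitors that end the response. CXCL2 is a chemokine that attracts neutrophils through the receptor CXCR2. TNFRSF21, also called death receptor 6, is a member of the tumour necrosis factor receptor family. SOCS3 is a JAK-STAT target that binds cytokine receptors and Janus kinases and blocks their signalling, and ZC3H12A, also called Regnase-1 or MCPIP1, is an endoribonuclease that degrades mRNAs of cytokines such as IL6. Tubule epithelial cells are known to produce chemokines and other cytokines when they are stressed.

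All 4 genes were counted deeply. The total count per library lay between 20216200 and 26132196, and the smallest count of any of the 4 genes in a library was 712, for ZC3H12A, at which counting alone gives a coefficient of variation of 3.75%. The other 3 genes had at least 2905 counts in every library. The cells had the markers of their labelled type, with LRP2 at 261 CPM, AQP1 at 263 CPM and KRT8 at 2301 CPM. CPM are counts scaled to the library total after TMM normalization, given here as means of 15 libraries. Of 13 leukocyte markers found, 6 passed the filter on low counts. LCP1 was at 83.4 CPM and AIF1 at 21.75 CPM, whereas PTPRC was at 0.0167 CPM. CDH6, at 376 CPM, was the most abundant of 16 proximal tubule markers found, of which 14 passed the filter on low counts.

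The second WT library stood apart most from the rest of its group. Its counts differed from those of WT replicates 1 and 3 by a chi-square of 23.6 and 42.2 per degree of freedom, beside 5.39 between replicates 1 and 3. The first principal component of the libraries, computed without the 4 genes, held 48.5% of the variance and placed WT replicate 2 at 6.83, WT replicate 1 at -15.8 and WT replicate 3 at -25.9. Other libraries also differed from their group, though by less. For NC replicate 2 the values were 8.20 and 14.9 beside 3.67 between the other NC libraries, and for Tg1 replicate 1 they were 9.63 and 12.3 beside 3.14. For Tg2 replicate 3 they were 11.3 and 19.0 beside 4.22, and for Tg3 replicate 2 they were 5.74 and 9.58 beside 2.79 per degree of freedom. On the first principal component the NC libraries lay between -17.5 and -1.21, and the Tg1 libraries between -7.12 and 5.64. The Tg2 libraries lay between 3.15 and 22.6 and those of Tg3 between 0.374 and 13.1, so WT replicate 2 lay within the ranges of Tg2 and Tg3.

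CXCL2, the ligand, was lowest in NC and was higher with every PKD2 plasmid. Its level was 180.1, 208 and 182 CPM in NC replicates 1 to 3, and 252, 227 and 222 CPM in WT. It was 213, 286 and 298 CPM in Tg1, and 294, 346 and 258 CPM in Tg2. In Tg3 it was 266, 241 and 248 CPM. All 12 libraries with a PKD2 plasmid lay above all 3 NC libraries, although Tg1 replicate 1 was only slightly above NC replicate 2, and Tg2 replicate 2 was the highest of the series. The mean was 190.1 ± 15.6 CPM in NC and 234 ± 16.3 CPM in WT (SD, n = 3). It was 252 ± 12.9 CPM in Tg3, 266 ± 46.3 CPM in Tg1 and 299 ± 44.3 CPM in Tg2 (SD, n = 3). From WT upward, each group overlapped with the next in this order, and the spread in Tg1 and Tg2 was larger than the steps between the means. Against NC the log2 fold change was 0.30 ± 0.12 (SE) in WT and 0.40 ± 0.12 in Tg3, and it reached 0.48 ± 0.12 in Tg1 and 0.65 ± 0.12 in Tg2. These 4 values share the NC libraries.

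The comparisons with WT do not use NC, but they share the mutant libraries with the comparisons that chose the genes. The lists of the study for Tg2 and Tg3 against NC also hold CXCL2 and TNFRSF21, and that for Tg2 holds ZC3H12A, so these values are given without a test too. The 3 Tg2 libraries lay above all WT libraries for CXCL2, as did those of 12% of all tested genes, and the log2 fold change was 0.36 ± 0.12 (SE). Tg3 minus WT was 0.11 ± 0.12 (SE) on the log2 scale. Tg2 minus Tg3 was 0.25 ± 0.12 (SE).

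TNFRSF21, the receptor, was the 1 gene of the 4 whose Tg2 and Tg3 libraries all lay above WT. Its level was 154, 166 and 146 CPM in NC, and 170, 178 and 152 CPM in WT. It was 173, 189 and 196 CPM in Tg1 and 199, 202 and 197 CPM in Tg2. In Tg3 it was 206, 210 and 188 CPM. The WT libraries overlapped with NC, although each was higher than the NC library of the same replicate number, and all mutant libraries lay above NC. The group mean was 155 ± 9.69 CPM in NC, 167 ± 13.5 CPM in WT and 186 ± 11.7 CPM in Tg1 (SD, n = 3). It was 199 ± 2.51 CPM in Tg2 and 201 ± 11.7 CPM in Tg3 (SD, n = 3), and these 2 groups overlapped. The highest Tg1 library and the lowest Tg2 library were only slightly apart, at 196 and 197 CPM.

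Beside WT, the mean of Tg2 and Tg3 had a log2 fold change of 0.27 ± 0.058 (SE), and all 6 libraries of the 2 mutants lay above all WT libraries, as did those of 5.57% of all tested genes. In Tg2 alone the log2 fold change from WT was 0.26, and in Tg3 alone it was 0.27, with the 3 Tg3 libraries above WT as for 10.3% of all tested genes. Tg2 minus Tg3 was -0.014 ± 0.066 (SE) on the log2 scale. The value for the mean of Tg2 and Tg3 depended on the WT libraries, and was 0.20 without WT replicate 3 and 0.32 without WT replicate 2. Nothing is read from these values as a test, since the libraries of Tg2 and Tg3 also served to choose TNFRSF21.

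**Figure D1:**
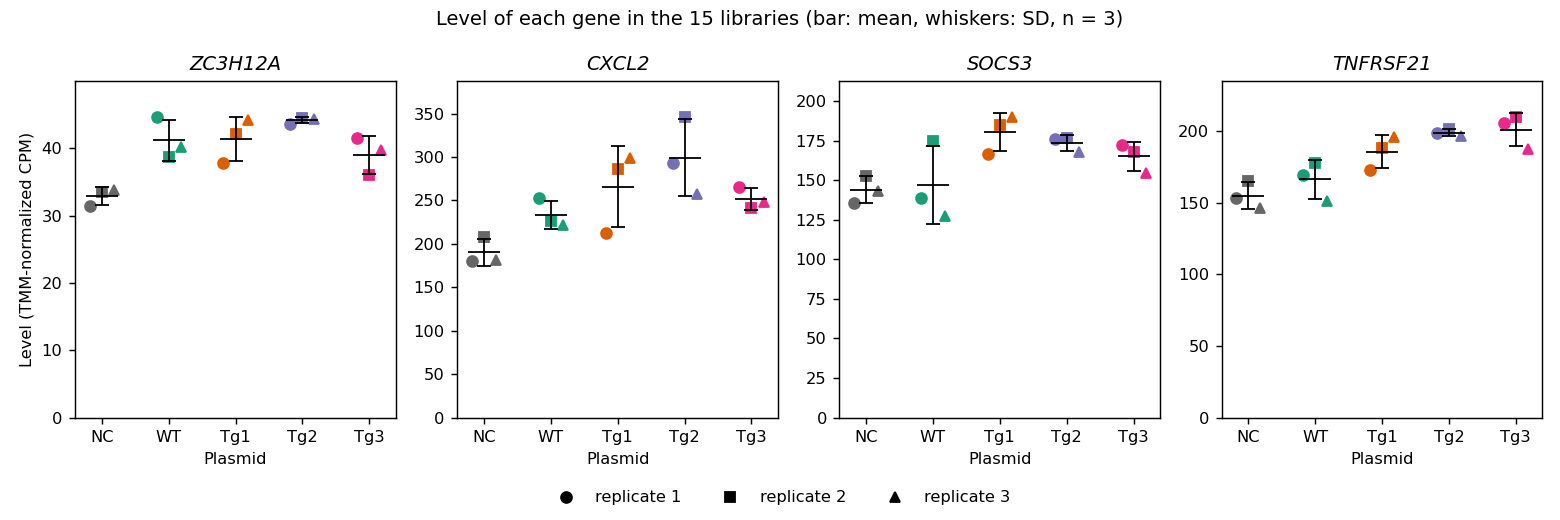
Level of ZC3H12A, CXCL2, SOCS3 and TNFRSF21 in each of the 15 libraries in TMM-normalized CPM (vertical axis from 0) for the 5 plasmids, with symbols for the replicate number, a bar for the mean and whiskers for the SD (n = 3). In WT, SOCS3 was at 175 CPM in replicate 2 against 139 and 127 CPM in replicates 1 and 3, whereas ZC3H12A and CXCL2 lay above NC in all 3 WT libraries.

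SOCS3, the JAK-STAT inhibitor, was within the range of NC in WT replicate 1, below all NC libraries in WT replicate 3 and within the range of the mutants in WT replicate 2. It was at 136, 153 and 143 CPM in NC, and at 139, 175 and 127 CPM in WT. The Tg1 libraries had 167, 185 and 190 CPM and the Tg2 libraries 176, 177 and 168 CPM. The Tg3 libraries had 172, 168 and 155 CPM. All 9 mutant libraries lay above the NC libraries, with Tg3 replicate 3 only slightly above NC replicate 2, and the range of WT took in all NC libraries and 5 of the 9 mutant libraries. The mean was 144 ± 8.56 CPM in NC, 147 ± 24.8 CPM in WT and 165 ± 9.15 CPM in Tg3 (SD, n = 3). It was 174 ± 4.97 CPM in Tg2 and 180.3 ± 12.2 CPM in Tg1 (SD, n = 3), and each group overlapped with the next in this order. Its log2 fold change from NC was 0.031 ± 0.093 (SE) in WT, 0.20 ± 0.092 in Tg3, 0.27 ± 0.092 in Tg2 and 0.33 ± 0.092 in Tg1. Without WT replicate 2 the WT value was -0.11.

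The comparison of SOCS3 with WT depended on that library. A gene was called at an adjusted p of at most 0.05 and an absolute log2 fold change of at least 0.26. With all libraries, Tg2 minus WT was 0.24 on the log2 scale (95% interval 0.043 to 0.44) with an adjusted p of 0.0891 from edgeR's quasi-likelihood test, and Tg3 minus WT was 0.17 (95% interval -0.031 to 0.37) with an adjusted p of 0.321. The mean of Tg2 and Tg3 minus WT was 0.20 with an adjusted p of 0.1, and the exact two-sided permutation p was 0.0595. Without WT replicate 2 these log2 fold changes were 0.38, 0.31 and 0.35, at adjusted p-values in edgeR of 0.00182, 0.0172 and 0.00243, and all 3 were past the threshold. Without it, however, 21% of all tested genes were called in Tg2 against WT, 11.4% in Tg3 against WT and 18.2% in the mean of Tg2 and Tg3 against WT, in place of 5.92%, 0% and 3.92% with all libraries. Over 17 alternatives the adjusted p of the mean of Tg2 and Tg3 against WT ranged from 0.00243 to 0.474 in edgeR or DESeq2.

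ZC3H12A, the ribonuclease, was higher than NC with every PKD2 plasmid, and the WT libraries overlapped with those of each mutant. Its level was 31.4, 33.5 and 33.8 CPM in NC, and 44.6, 38.7 and 40.2 CPM in WT. It was 37.8, 42.2 and 44.3 CPM in Tg1 and 43.7, 44.5 and 44.4 CPM in Tg2. In Tg3 it was 41.5, 36.0 and 39.7 CPM. None of the 12 libraries with a PKD2 plasmid reached down to NC, and the highest single value was that of WT replicate 1. The mean was 32.9 ± 1.31 CPM in NC, 39.1 ± 2.82 CPM in Tg3 and 41.2 ± 3.07 CPM in WT (SD, n = 3). It was 41.4 ± 3.32 CPM in Tg1 and 44.2 ± 0.46 CPM in Tg2 (SD, n = 3). From Tg3 upward, each group overlapped with the next in this order. The log2 fold change from NC was 0.25 ± 0.070 (SE) in Tg3, 0.32 ± 0.070 in WT, 0.33 ± 0.069 in Tg1 and 0.43 ± 0.069 in Tg2, and it was 0.37 in WT without WT replicate 2.

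For ZC3H12A, the comparisons among WT, Tg2 and Tg3 are likewise given without a test. Tg2 minus WT was 0.10 ± 0.069 (SE) on the log2 scale, and Tg3 minus WT was -0.076 ± 0.069. The mean of Tg2 and Tg3 minus WT was 0.013 ± 0.060 (SE). The 3 Tg2 libraries lay above all 3 Tg3 libraries, by 0.18 ± 0.069 (SE) on the log2 scale. In that comparison 5.46% of all tested genes had the Tg2 libraries above all Tg3 libraries, 673 genes had an unadjusted p under 0.05, and edgeR and DESeq2 each called 0 genes.

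**Figure D2:**
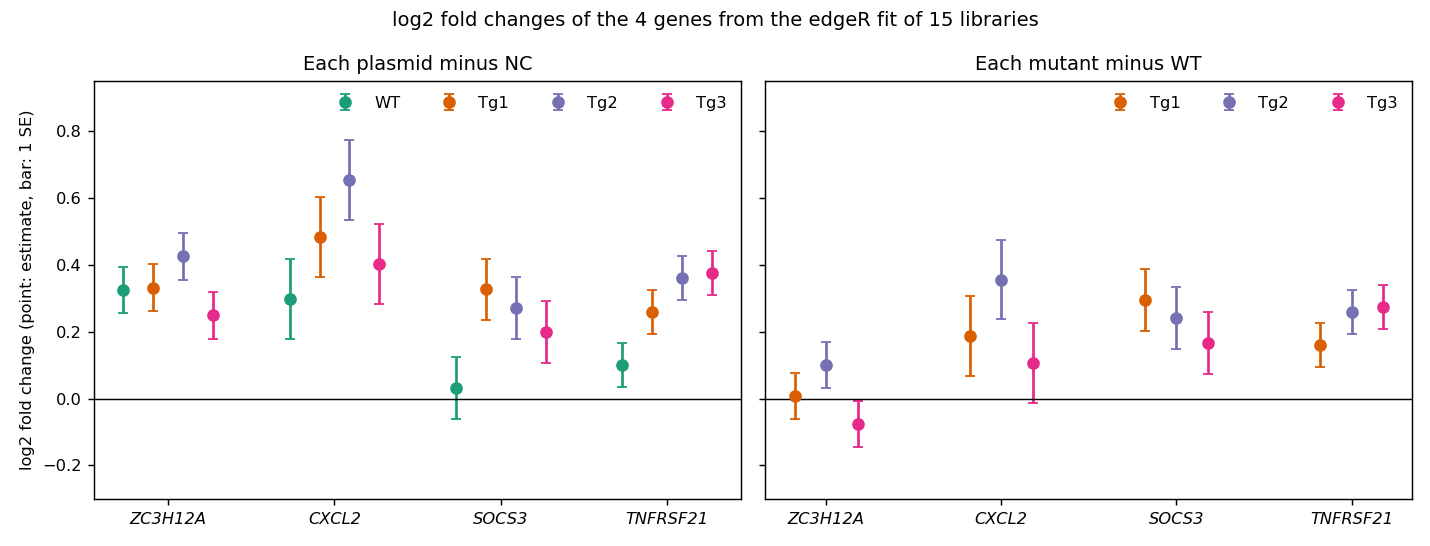
log2 fold change (point) and 1 SE (bar) of each of the 4 genes for each plasmid against NC (left) and each mutant against WT (right), from the edgeR fit of all 15 libraries. Against NC, WT was at 0.32 for ZC3H12A and 0.30 for CXCL2 but at 0.031 for SOCS3 and 0.10 for TNFRSF21; against WT, TNFRSF21 was at 0.26 in Tg2 and 0.27 in Tg3.

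Set side by side against NC, the 4 genes had their largest values in different plasmids, but the step to the largest value from the next was within the spread of the libraries for each gene, and whether the genes differ in this was not tested. TNFRSF21 had log2 fold changes of 0.10 ± 0.066 (SE) in WT and 0.26 ± 0.066 in Tg1, against 0.36 ± 0.066 in Tg2 and 0.37 ± 0.066 in Tg3, and thus the largest value in Tg3, whereas for SOCS3 it was in Tg1 and for CXCL2 and ZC3H12A in Tg2. Without overlap with NC were 2 of 4 genes in WT and 4 of 4 in each mutant, beside 3.73% of all tested genes in WT, 11.9% in Tg1, 13.4% in Tg3 and 17.5% in Tg2 that lay above NC without overlap. Of all tested genes, 1.19% were called in Tg1 and 8.43% in Tg2 against NC. In WT and Tg3, edgeR called 0 of 11553 genes, with 524 and 2089 genes at an unadjusted p under 0.05, and DESeq2 called 11 and 52. Nothing is read from the counts of the 4 genes, since comparisons with NC chose them. Tg1 minus WT was 0.0075 for ZC3H12A, 0.19 for CXCL2, 0.30 for SOCS3 and 0.16 for TNFRSF21 on the log2 scale, with overlapping libraries in each case, beside 8.45% of all tested genes with the Tg1 libraries above all WT libraries.

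Within plasmids, the levels of SOCS3 and TNFRSF21 deviated together, as did those of ZC3H12A and CXCL2. The deviations of the 15 libraries from their group means, in log2 CPM, correlated with r = 0.82 for SOCS3 and TNFRSF21, r = 0.67 for ZC3H12A and CXCL2 and r = 0.56 for CXCL2 and TNFRSF21. For ZC3H12A, r was 0.051 with SOCS3 and 0.18 with TNFRSF21, and for CXCL2 and SOCS3 it was 0.40. In WT replicate 2, SOCS3 deviated most from its group upward while ZC3H12A lay below its group mean. Without this library r was 0.63 for ZC3H12A and SOCS3, 0.79 for CXCL2 and SOCS3, 0.42 for ZC3H12A and TNFRSF21, 0.68 for CXCL2 and TNFRSF21, 0.86 for SOCS3 and TNFRSF21 and 0.68 for ZC3H12A and CXCL2. With all libraries the 95% intervals were wide and overlapped, at 0.46 to 0.95 for SOCS3 and TNFRSF21, 0.15 to 0.90 for ZC3H12A and CXCL2 and -0.54 to 0.61 for ZC3H12A and SOCS3. These are descriptions over libraries that share depth scaling and culture, with 10 residual degrees of freedom.

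The deviations were also set against the first principal component of the libraries. For SOCS3 and TNFRSF21, r with the deviations on that axis was 0.87 and 0.82, for CXCL2 it was 0.43 and for ZC3H12A -0.15, over 15 libraries. The summed level of the proximal tubule markers moved with the same axis, from 2003 CPM in NC and 1997 CPM in WT to 1831 CPM in Tg1, 1753 CPM in Tg2 and 1802 CPM in Tg3. Within WT it was 2070 CPM in replicate 1, 1820 CPM in replicate 2 and 2102 CPM in replicate 3. The epithelial markers, led by KRT8, had higher sums with the PKD2 plasmids, at 3657 CPM in NC, 3801 CPM in WT, 4011 CPM in Tg1, 3940 CPM in Tg2 and 3884 CPM in Tg3. The part of this axis or of the markers in the levels of the 4 genes was not tested. Leukocyte markers lay between 140.3 and 150.1 CPM in sum in every library, with LCP1 the most abundant at 83.4 CPM, and the endothelial markers, led by EMCN at 2.53 CPM, summed to between 4.42 and 6.36 CPM. Of the fibroblast markers only VIM at 2326 CPM and COL1A2 at 923 CPM passed the filter, and PDGFRA was at 0.0174 CPM.

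**Figure D3:**
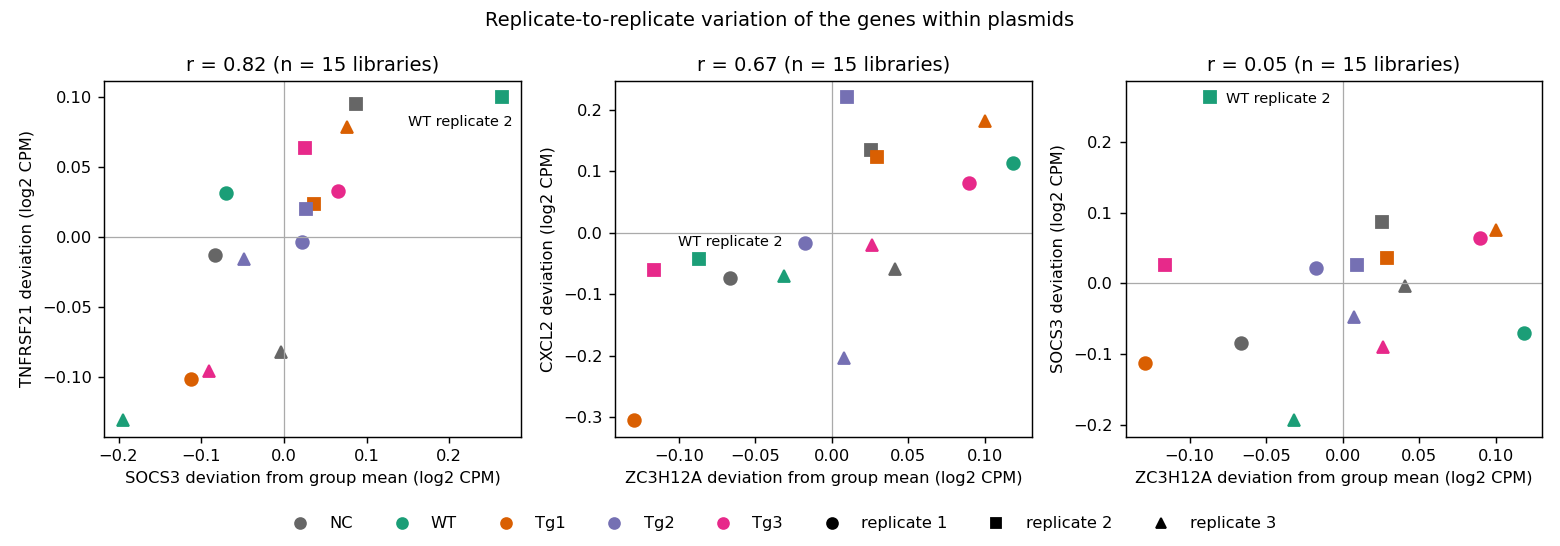
Deviation of each library from its group mean (log2 CPM) for 3 pairs of genes, with colours for the plasmid, symbols for the replicate number and Pearson's r over 15 libraries above each panel. SOCS3 and TNFRSF21 deviated together (r = 0.82), and WT replicate 2 lay at the upper end of SOCS3 but below the mean of ZC3H12A.

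The genes most alike in pattern over the 15 libraries, by Pearson's r of log2 CPM, differed between the 4 genes. For ZC3H12A they were IER3 (r = 0.95), FOSL1 (0.94), IER2 (0.93), MYC (0.93) and JUNB (0.91), which are early response genes or transcription factors of the AP-1 and MYC families. For CXCL2 they were EDN1 (0.95), which encodes endothelin-1, MYC (0.95), ZFP36 (0.94), whose protein destabilizes AU-rich cytokine mRNAs, FOSL1 (0.92) and ANKRD1 (0.92). Each of these had a log2 fold change of 0.25 to 0.52 in WT against NC. For SOCS3 they were ENSSSCG00000005217 (0.96), which has no symbol, PGAM2 (0.96), CISH (0.95), SLC39A8 (0.94) and PLSCR3 (0.94), and for TNFRSF21 they were BCAR1 (0.95), BYSL (0.95), SCARA3 (0.94), GPAT4 (0.94) and NOP2 (0.94). In WT against NC these 10 genes had log2 fold changes between -0.030 and 0.18. By Spearman's rho the lists shared 4 of 5 genes for ZC3H12A and CXCL2, 2 of 5 for SOCS3 and 1 of 5 for TNFRSF21, and all r values include the differences between group means.

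**Figure D4:**
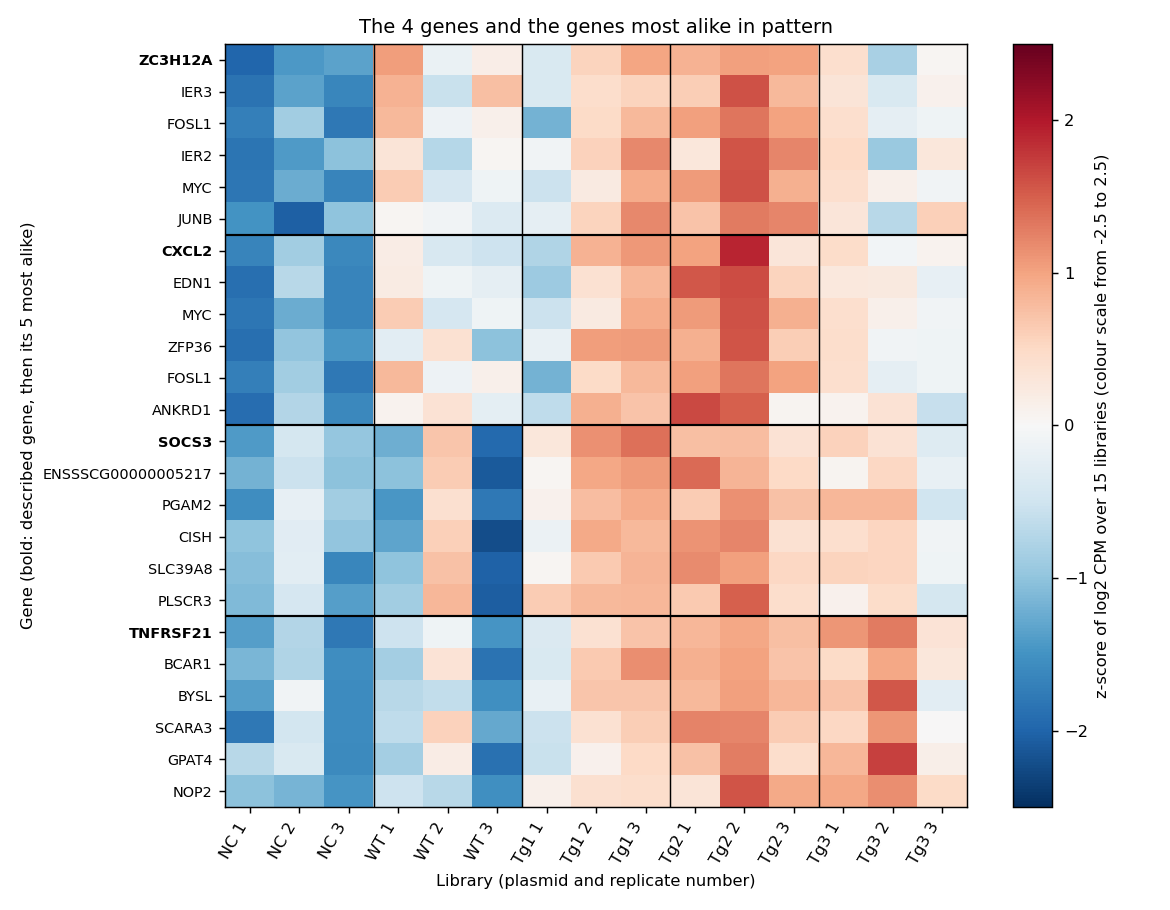
Levels of the 4 genes (bold) and, under each, its 5 most alike genes in the 15 libraries, as z-scores of log2 CPM over the libraries (blue below and red above the mean). WT replicates 1 and 3 were low for SOCS3, TNFRSF21 and their alike genes, and all 3 WT libraries lay above the NC libraries for ZC3H12A and CXCL2.

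Relatives of the 4 genes gave further values. CISH, another SOCS family inhibitor of JAK-STAT signalling, had 32.4, 45.3 and 27.6 CPM in WT, the same order of libraries as SOCS3, and its deviations correlated with those of SOCS3 with r = 0.97. Its log2 fold change against NC was -0.030 in WT, 0.26 in Tg3, 0.33 in Tg1 and 0.42 in Tg2, and the adjusted p in Tg2 was 0.0517 from edgeR's quasi-likelihood test. SOCS1, another inhibitor of Janus kinases, was at 0.70 ± 0.25 (SE) in Tg2 against NC with an adjusted p of 0.0671 from edgeR, and it rose in Tg2 against WT by 0.86, with an adjusted p of 0.0473. That call was lost with only WT and Tg2 in the fit and without WT replicate 3, where 0 of all tested genes were called. It was also lost without WT replicate 1, Tg2 replicate 1 or Tg2 replicate 2. SOCS4, SOCS5, SOCS6 and SOCS7 had log2 fold changes between -0.15 and 0.0032 in Tg2 against NC and were not called. ZC3H12C was at 0.23 in Tg2 against NC with an adjusted p of 0.0804 from edgeR, and ZC3H12B and ZC3H12D were under the filter. Chemokine genes of the CXC class have similar sequences, and how the quantification shared their reads was not tested.

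The wider cytokine pathway was counted with lists of 206 other genes (ligands, receptors, transducers, feedback inhibitors and NF-kB targets), of which 146 were tested. Interferon targets and mRNAs that ZC3H12A cleaves were counted apart from these. Of the latter, IL6, NFKBIZ and REL were also on the lists of the wider pathway. In Tg2 against NC, 33 of the 146 genes rose and 0 fell, which is 22.6% called higher beside 4.73% of all tested genes called higher and 3.7% called lower. The median log2 fold change of the 146 genes was 0.25 in Tg2, 0.13 in Tg1, 0.13 in Tg3 and 0.0019 in WT, whereas the median of all tested genes was -0.0066 in Tg2 and -0.0036 in WT. In Tg1, 2 genes rose and 1 fell, beside 0.182% and 1.01% of all tested genes, and in WT and Tg3 edgeR called 0. Without NC replicate 1, 0 of the 146 genes were called in Tg1. The 33 genes kept their direction in every alternative, but 0 of them remained called without NC replicate 3 or without Tg2 replicate 2, 1 without NC replicate 1 and 3 without Tg2 replicate 1. In those fits 0, 0, 24 and 48 genes of all tested were called.

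Of 20 ligands tested, 7 rose in Tg2 against NC. IL6, the cytokine that signals through gp130, went from 45.6 ± 9.64 CPM in NC to 87.4 ± 19.8 CPM in Tg2 (SD, n = 3), a log2 fold change of 0.94 ± 0.24 (SE) with an adjusted p of 0.0262 from edgeR's quasi-likelihood test. CXCL8, a neutrophil chemokine like CXCL2, rose by 0.66 ± 0.12, with an adjusted p of 0.0132, and was at 0.11 in WT against NC. LIF, another gp130 cytokine, rose by 0.40 and the chemokine CCL19 by 0.26. CXCL9 rose by 1.64 and TNFSF13B, the B cell factor BAFF, by 1.19. Not called were CSF1, the macrophage growth factor, with a log2 fold change of 0.015, and the interferon-induced chemokines CXCL10, with 1.40 ± 0.48, and CXCL11, which went from 176 ± 82.5 to 496 ± 194.5 CPM (SD, n = 3). The median of the ligands was 0.54 in Tg2, 0.32 in Tg1, 0.37 in Tg3 and 0.039 in WT.

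Of 27 receptors tested, 7 rose in Tg2 and their median was 0.25 in Tg2 and 0.0068 in WT. TNFRSF12A and TNFRSF1B, of the same family as TNFRSF21, rose by 0.28 and 0.40, at adjusted p-values in edgeR of 0.0141 and 0.0276, and TNFRSF1A, the main receptor of tumour necrosis factor, was at 0.23 and was not called. IL4R rose by 0.61, IL1RAP by 0.70, IL13RA1 by 0.33 and IL17RA by 0.31. IL6ST, which encodes gp130, and TLR3, a sensor of double-stranded RNA, were at 0.034 and 0.19 and were not called.

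Of 47 signal transducers tested, 6 rose in Tg2, with a median of 0.18. RELA, the NF-kB subunit p65, rose by 0.31 with an adjusted p of 0.025 from edgeR, IKBKB, a kinase that releases NF-kB, by 0.30, and IRAK2, an adaptor of interleukin-1 and Toll-like receptors, by 1.04. TYK2, a Janus kinase, rose by 0.27, TICAM1 by 0.42 and the interferon regulatory factor IRF7 by 0.78. STAT2, at 0.68 ± 0.25 (SE), and STAT3, at 0.18 ± 0.060, were not called.

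Of 39 feedback inhibitors tested beside SOCS3 and ZC3H12A, 7 rose in Tg2, and the median was 0.16. NFKBIA, which holds NF-kB in the cytoplasm, rose by 0.65 with an adjusted p of 0.0219 from edgeR, and TNFAIP3, the ubiquitin-editing enzyme A20, by 0.32 with an adjusted p of 0.0259. ZFP36 rose in Tg1 by 0.46 and in Tg2 by 0.54, and its relative ZFP36L1 rose in Tg2 by 0.56. DUSP1, a phosphatase of MAP kinases, rose in Tg2 by 0.41 and was at 0.41 in WT without passing the test there. RC3H1, which encodes Roquin-1, an mRNA decay factor that acts on many of the mRNAs that ZC3H12A cleaves, fell by 0.31 in Tg1, with an adjusted p of 0.0213, and was at -0.0094 in Tg2. ATF3 had its largest value in WT, 0.65 ± 0.16 (SE), and was at 0.14 in Tg2, neither of them called, but it was lower in the mean of Tg2 and Tg3 than in WT, by a log2 fold change of -0.56 with an adjusted p of 0.0334 from edgeR.

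Among targets, 7 of 15 NF-kB targets and 4 of 25 interferon targets rose in Tg2. ICAM1, an adhesion molecule, rose by 0.49, TNFAIP2 by 0.29, SOD2 by 0.39 and LCN2 by 0.34, with adjusted p-values between 0.021 and 0.0456 from edgeR's quasi-likelihood test. IER3 rose in Tg1 by 0.44 and in Tg2 by 0.64, and was at 0.49 in WT. BIRC3 and BCL2L1 were at 0.46 and 0.11 in Tg2 and were not called. The interferon targets IFI6, UBA7, BST2 and OASL rose by 0.88, 0.94, 0.94 and 1.28. All 25 interferon targets had values above 0 in Tg2 and in Tg3, and their median was 0.58 in Tg2, 0.38 in Tg3, 0.28 in Tg1 and -0.024 in WT. The median of all tested genes was -0.0066 in Tg2 and -0.0018 in Tg3. In Tg2 minus Tg3 all 25 were above 0 as well, with 0 called. The 25 genes were measured in the same libraries and are not separate observations. The abundant RSAD2, IFIT1 and MX2, at 4283, 4071 and 2671 CPM on average, were at 0.66, 0.80 and 0.58 in Tg2 and were not called. Without NC replicate 1, NC replicate 3, Tg2 replicate 1 or Tg2 replicate 2, 0 of the 25 interferon targets were called in Tg2 against NC, and there were 12 without NC replicate 2 and 15 without Tg2 replicate 3. Of all 11553 tested genes, 1321 were called without NC replicate 2 and 1878 without Tg2 replicate 3, beside 974 with all libraries. The number of NF-kB targets called was 0 without NC replicate 3 or Tg2 replicate 2 and at most 11, without Tg2 replicate 3. Of the 4 tested genes whose mRNAs ZC3H12A is known to cleave, with a median of 0.13 in Tg2 and 0.098 in WT, only IL6 was called, whereas TFRC was at 0.034, NFKBIZ at 0.23 and REL at -0.11 in Tg2.

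**Figure D5:**
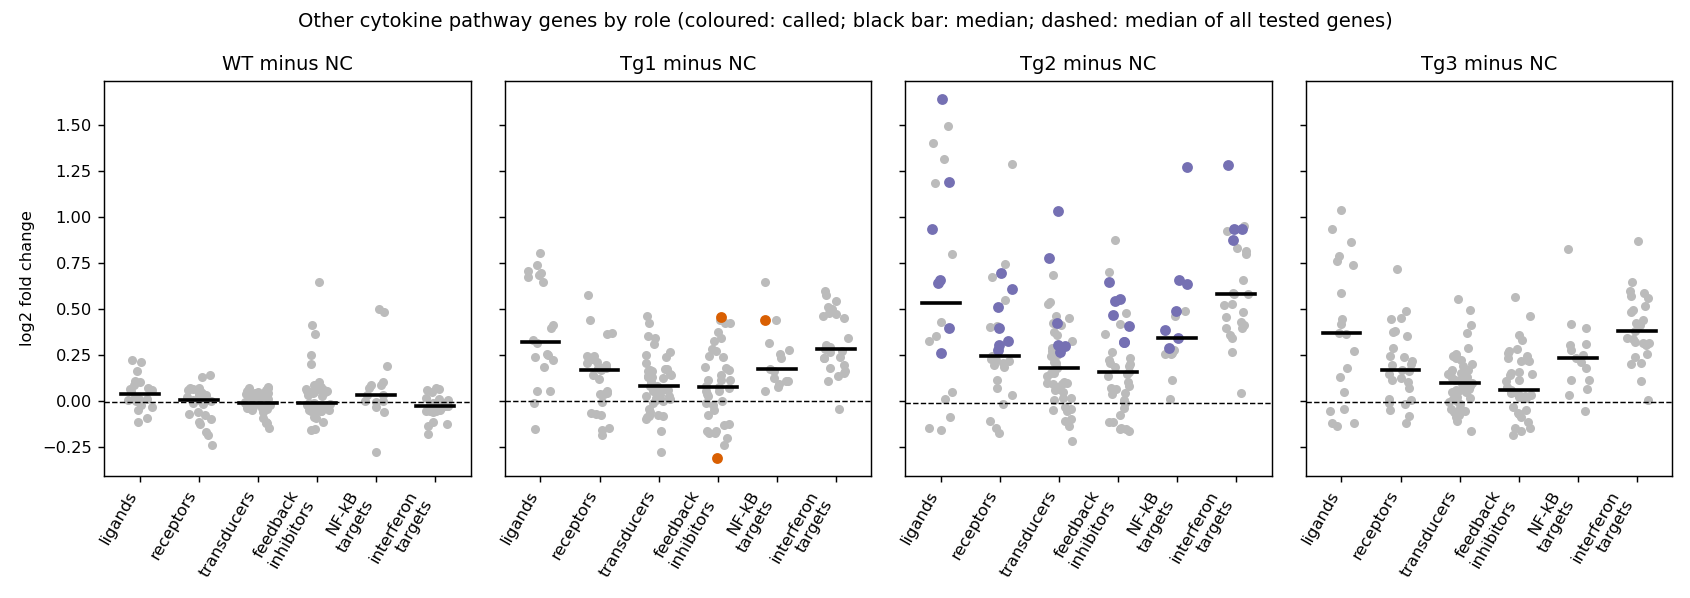
log2 fold change against NC (vertical axis) of the tested genes of 6 lists by role (the list of 4 mRNAs that ZC3H12A cleaves is not drawn), 1 panel per plasmid, with called genes in colour, a black bar for the median of each list and a dashed line for the median of all tested genes. In Tg2 the medians of the 6 lists lay between 0.16 for feedback inhibitors and 0.58 for interferon targets, and in WT between -0.024 and 0.039.

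Against WT, 20 of the 146 pathway genes rose in Tg2 and 0 fell, which is 13.7% beside 3.31% of all tested genes that rose and 2.61% that fell. CXCL8 was among them, with a log2 fold change of 0.55 ± 0.12 (SE) and an adjusted p of 0.0277 from edgeR's quasi-likelihood test, as were NFKBIA, with 0.59 and 0.0374, TNFAIP3, with 0.37 and 0.029, and RELA, with 0.26 and 0.044. IL6 was at 0.72 with an adjusted p of 0.0591 from edgeR and was not called. In Tg3 against WT edgeR called 0 of the 146 genes. An unadjusted p under 0.05 in edgeR was found for 31 of them, beside 2215 of all 11553 tested genes. DESeq2 called 2 of the 146 genes there, beside 116 of all tested genes. In Tg2 against Tg3 edgeR called 0 as well. Without WT replicate 2, 78 of the 146 genes were called in Tg2 against WT and 54 in Tg3 against WT, and all 25 interferon targets were called in both. In those fits 21% of all tested genes were called in Tg2 and 11.4% in Tg3 against WT. Without WT replicate 1, WT replicate 3, Tg2 replicate 1 or Tg2 replicate 2, 0 of the 146 genes were called in Tg2 against WT. Without Tg2 replicate 3 there were 64, and the share of all tested genes called in that fit is not given here. With only WT and Tg2 in the fit, 0 of the 146 genes were called as well, and 0 of all tested genes. In the mean of Tg2 and Tg3 against WT, 10 of the 146 genes rose and 1, ATF3, fell, beside 1.89% and 2.03% of all tested genes, and these calls too were all lost with only the groups compared in the fit, and without WT replicate 1, WT replicate 3 or Tg3 replicate 2. Leaving out Tg2 replicate 1, Tg2 replicate 2 or Tg3 replicate 1 left 2, 1 and 4 genes called, whereas without WT replicate 2 there were 71 and without Tg2 replicate 3 there were 39. Of all tested genes, 82, 20, 157, 2104 and 1182 were called in these fits, in the same order.

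Genes next to the 4 genes in the RefSeq order of the pig assembly Sscrofa11.1 did not share one pattern. MEAF6, beside ZC3H12A, was at -0.077 in Tg2 against NC. MTHFD2L, beside CXCL2, was at -0.13, and PGS1, beside SOCS3, at 0.37. CD2AP, beside TNFRSF21, was at 0.27.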

How the data were processed

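Polyadenylated RNA of 15 libraries (3 wells for each of 5 plasmids) was sequenced. The authors quantified transcripts with Salmon against Ensembl pig cDNA and deposited whole-number counts per gene, not normalized; the genome build is not given in the sources used here, and neither is the step from transcripts to genes. Such counts give no strand, isoform or human transgene level here. Groups and replicate numbers came from the labels, which title WT as genotype 3. The 4 genes and the gene lists were chosen with earlier results of these data known. Of the 16660 identifiers, 13373 had a symbol in the names table used.

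Genes of the deposited table whose mean CPM was at least 2 (11553 genes with 99.8% of counts) were normalized by TMM and fitted in edgeR 4.0.16 (R 4.3.3) by glmQLFit and glmQLFTest, with 1 mean per plasmid over all 15 libraries and p-values adjusted over all tested genes after Benjamini and Hochberg. Thresholds were those of the study's methods. Log2 CPM used a prior count of 0.5, and standard errors were taken from the estimate and its F statistic. SOCS3 was also compared by exact two-sided permutation of log2 CPM. The same tests of the other 3 genes against WT were run but are not given, because libraries of Tg2 or Tg3 served to choose them. Replicate pairs differed by a chi-square per degree of freedom of 2.79 or more, so none was counted as 1 library. Named genes were the 4 genes, their 5 most alike genes, their relatives, and in each list the 6 most abundant called and 3 most abundant uncalled genes.

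Deviations of same-numbered libraries correlated with r = 0.18, 0.50 and 0.41 for NC and WT, which was the only 1 of 10 pairs of plasmids with every r over 0.1, so that the numbers were taken to pair NC and WT. The values printed come from the fit without a block, and a replicate block left WT against NC at 0 called genes. Alternatives were DESeq2 1.42.0, DESeq2 size factors in edgeR, no filter or filterByExpr, no fold-change threshold, only the groups compared, a replicate block, only replicates 1 and 3, and leaving out each library. Sequences of the genes were not used here. Of their positions, only the order of neighbours in RefSeq was used, and no coordinates are given. A few genes that the naming rule covers are not reported here.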

Additional observations from a re-analysis of the deposited data

How the results depend on the processing

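The cause of the changes given here was not tested. With DESeq2 in place of edgeR, the genes called among all tested were 11 in WT, 244 in Tg1 and 52 in Tg3 against NC, and 1184 in Tg2, 116 in Tg3 and 828 in the mean of Tg2 and Tg3 against WT. Of the 146 pathway genes it called 3 in WT and 3 in Tg3 against NC, and 43, 2 and 26 against WT in the same order. Values of CXCL2 and TNFRSF21 against WT are given without a test, and DESeq2 gave a log2 fold change of 0.36 for CXCL2 in Tg2, and of 0.2601 in Tg2 and 0.27 in Tg3 for TNFRSF21. With only the groups compared in the fit, 0 genes were called by edgeR in Tg2 (2708 at an unadjusted p under 0.05) and in the mean of Tg2 and Tg3 (3346) against WT, with 0 pathway genes in each, whereas 55 pathway genes were called in Tg2 against NC. TNFRSF21 in the mean of Tg2 and Tg3 minus WT was then 0.27. Without a fold-change threshold, 264 genes in Tg1 and 1643 in Tg2 against NC and 1099 in Tg2 and 956 in the mean against WT were called. TNFRSF21 in Tg2 minus WT was 0.2592 there, 0.2601 with DESeq2 size factors and 0.2612 with no filter on low counts.

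Beyond NC and WT, the replicate numbers were not taken to pair libraries, because no other pair of plasmids had every r over 0.1. NC and Tg3 missed that cut through replicate 1 only, with r of 0.054, 0.50 and 0.36 in replicates 1 to 3. Whether the numbers mark wells handled together was not tested. With the replicate block, 246 genes were called in Tg1, 1624 in Tg2 and 11 in Tg3 against NC, and 1578 in Tg2, 111 in Tg3 and 1204 in the mean of Tg2 and Tg3 against WT. Of the pathway genes, the block gave 5 in Tg1 and 67 in Tg2 against NC, and 65, 1 and 49 against WT. Under the block, the log2 fold change minus WT was 0.35 for CXCL2 in Tg2, 0.2614 for TNFRSF21 in Tg2 and 0.27 for TNFRSF21 in Tg3, and it changed no call of SOCS3 against WT. Same-numbered libraries of different plasmids correlated with a mean r of 0.13 in their deviations and the others with -0.066.

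With only replicates 1 and 3, which leaves out WT replicate 2, 6 genes were called in WT and 19 in Tg1 against NC, and 1832 in Tg2, 1 in Tg3 and 1480 in the mean against WT. Of the pathway genes there were 1 in WT, 1 in Tg1 and 58 in Tg2 against NC, and 71 in Tg2 and 63 in the mean against WT. SOCS3 then passed in Tg2 (0.36) and in the mean (0.33) minus WT, and TNFRSF21 in Tg2 was at 0.29.

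When single libraries were left out, the genes called ranged from 0 to 25 in WT, 16 to 83 in Tg1 and 0 to 1878 in Tg2 against NC, and from 0 to 2421 in Tg2, 0 to 1321 in Tg3 and 0 to 2104 in the mean against WT, with the highest values against WT, and 25 in WT, without WT replicate 2. The pathway genes ranged from 0 to 3 in WT, 0 to 3 in Tg1 and 0 to 66 in Tg2 against NC, and from 0 to 78, 0 to 54 and 0 to 71 against WT. The log2 fold change minus WT ranged in Tg2 from 0.24 to 0.45 for CXCL2, 0.15 to 0.38 for SOCS3 and 0.19 to 0.31 for TNFRSF21, in Tg3 from 0.075 to 0.31 for SOCS3 and 0.21 to 0.32 for TNFRSF21, and in the mean from 0.11 to 0.35 for SOCS3 and 0.20 to 0.32 for TNFRSF21. Within plasmids, r without WT replicate 2 was 0.63 for ZC3H12A and SOCS3, 0.79 for CXCL2 and SOCS3 and 0.42 for ZC3H12A and TNFRSF21. Among comparisons of WT, Tg2 and Tg3, 2 values near 0 changed sign. TNFRSF21 in Tg2 minus Tg3 ranged from -0.061 to 0.018 (without Tg3 replicate 2) and was 0.012 with only replicates 1 and 3. ZC3H12A in the mean minus WT ranged from -0.030 (without WT replicate 2) to 0.074, and was -0.0040 without WT replicate 3, -0.010 without Tg3 replicate 1 and -0.014 with only replicates 1 and 3. Counting error was at most 3.75% per library for the 4 genes, and it does not cover the spread between 3 wells.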
